A study of Mus musculus with 24 samples.

Results

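The Ifit genes (interferon-induced proteins with tetratricopeptide repeats) were followed through osteoclast formation in bone-marrow cells of STING-deficient (KO) and wild-type (WT) mice. The 4 members, Ifit1, Ifit2, Ifit3 and Ifit3b, were taken by name from a deposited table of 10721 genes, in which Ifit3b carries its older name I830012O16Rik. STING is the adaptor that carries the signal of cytosolic DNA sensing towards type I interferon. The KO allele and the strain are not described in the sources used here. Cells from the marrow of female mice, 10 to 12 weeks of age, were cleared of red cells and grown for 72 hours in 40 ng/mL mCSF, the macrophage growth factor. Cells kept back at that point were the day 0 precursors, which had seen no RANKL, the cytokine that drives osteoclast formation. The others were plated at 25000 cells per well with 10 ng/mL RANKL and 20 ng/mL mCSF, and pooled wells were taken at days 2, 3 and 4. The 8 groups of 3 libraries were thus KO and WT at day 0 and at days 2, 3 and 4, from KO mice 481, 528 and 532 and WT mice 480, 529 and 531. Every mouse gave all 4 days. No culture without RANKL was kept beyond day 0, so RANKL, the lower mCSF dose, replating and time in culture cannot be told apart.

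Ifit proteins are made in response to type I interferon, and several can also be switched on directly by the transcription factor IRF3. They bind viral RNA or restrain its translation, and they are widely read as markers of interferon signalling. In bone, interferon-beta made by osteoclast precursors is known to hold back RANKL-driven differentiation. IFIT1 recognises capped RNA that lacks the host's ribose methylation. IFIT2 binds AU-rich RNA. Human IFIT3 binds IFIT1 and steadies it on its target RNA, and Ifit3b is a mouse duplicate of Ifit3.

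All 4 members lie in 1 cluster on mouse chromosome 19 (GRCm38), within 99.3 kb from the start of Ifit2 to the end of Ifit1. The related gene Ifit1bl1 lies between Ifit3 and Ifit3b, and Ifit1bl2 between Ifit3b and Ifit1, both on the minus strand. Ifit2 spans 34550694 to 34576419, Ifit3 spans 34583531 to 34588731, Ifit3b spans 34607970 to 34613401 and Ifit1 spans 34640871 to 34650009, all on the plus strand. No exon of another annotated gene overlaps theirs. The promoter sequences are shown because interferon-activated factors are known to bind the interferon-stimulated response element in promoters of interferon-stimulated genes. Whether this element bears on how the members move together was not tested. The 250 bases before each annotated start (RefSeq, GRCm38.p6, plus strand) are given 5′ to 3′, with matches to the motif GAAANNGAAA, here on the reverse strand as TTTCNNTTTC, in capitals. The windows are chr19:34640639-34640888 for Ifit1, chr19:34583279-34583528 for Ifit3, chr19:34607707-34607956 for Ifit3b and chr19:34550444-34550693 for Ifit2. The gene spans above follow the GENCODE annotation, whose starts of Ifit1, Ifit3 and Ifit3b differ from those of RefSeq. Distances below are counted from the RefSeq starts.
Ifit1: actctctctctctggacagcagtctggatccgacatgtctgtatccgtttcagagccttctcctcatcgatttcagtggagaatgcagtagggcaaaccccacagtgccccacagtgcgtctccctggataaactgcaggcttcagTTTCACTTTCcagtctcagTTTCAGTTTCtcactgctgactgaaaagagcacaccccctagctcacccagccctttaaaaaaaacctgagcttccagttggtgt
Ifit3: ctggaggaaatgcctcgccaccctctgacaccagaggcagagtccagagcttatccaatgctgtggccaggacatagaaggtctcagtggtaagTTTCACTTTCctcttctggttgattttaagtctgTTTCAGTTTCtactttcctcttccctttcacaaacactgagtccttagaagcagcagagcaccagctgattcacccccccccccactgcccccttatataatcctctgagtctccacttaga
Ifit3b: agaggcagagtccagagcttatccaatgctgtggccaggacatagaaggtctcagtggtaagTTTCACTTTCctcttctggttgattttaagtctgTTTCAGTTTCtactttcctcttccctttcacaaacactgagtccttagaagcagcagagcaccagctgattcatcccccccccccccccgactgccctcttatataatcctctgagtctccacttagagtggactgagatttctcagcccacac
Ifit2: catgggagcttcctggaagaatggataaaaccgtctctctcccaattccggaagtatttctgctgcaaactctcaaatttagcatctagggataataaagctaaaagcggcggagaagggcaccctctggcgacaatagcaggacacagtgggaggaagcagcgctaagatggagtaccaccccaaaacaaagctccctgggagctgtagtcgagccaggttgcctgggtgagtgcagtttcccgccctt

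Ifit1, Ifit3 and Ifit3b each held 2 matches. They began 104 and 85 bases before the start of Ifit1, 156 and 122 bases before that of Ifit3, and 188 and 154 bases before that of Ifit3b. The 2 matches of Ifit1 also lie before a start of Ifit1bl2 on the minus strand, whose window overlaps that of Ifit1. Both windows annotated for Ifit2 held 0 matches, which says only that these letters are not in these windows. Of 32851 promoter windows of the same length, searched on both strands, 2.98% held at least 1 match and 0.18% held at least 2. A match is a string of letters, and binding was not measured. The windows of Ifit3 and Ifit3b were 96.4% identical over 224 aligned bases.

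**Figure D1:**
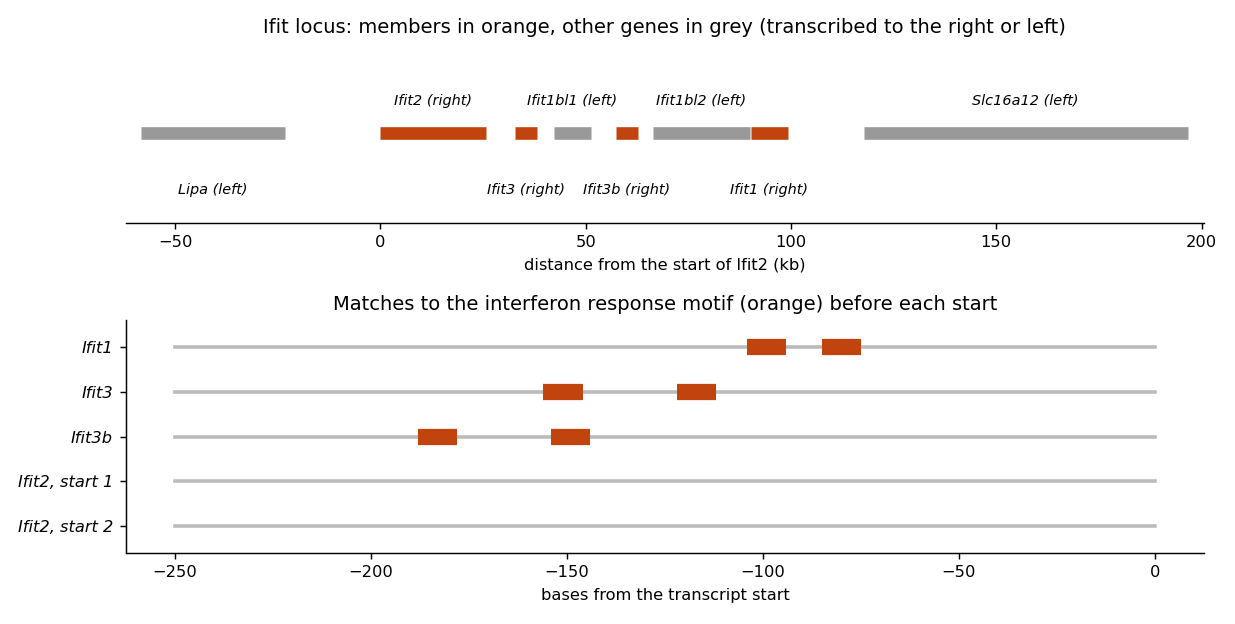
Upper panel, the Ifit genes and the nearest neighbours by distance from the start of Ifit2 in kb, with members in orange. Lower panel, the 250 bases before each annotated start, with matches to the response-element motif in orange: 2 each for Ifit1, Ifit3 and Ifit3b, and 0 in both Ifit2 windows.

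The transcripts of Ifit3 and Ifit3b were 97.8% identical over 1700 aligned bases. Every other pair of members was at most 67.9% identical over its best-aligned stretch, so the problem of shared reads concerns Ifit3 and Ifit3b. Of all 75-base stretches of Ifit3b, 35.7% also occur in Ifit3 without a change, and of 100-base stretches 27.4% do. The sources used here do not say how the authors' counting placed reads that fit both copies, so values of these 2 genes are uncertain relative to each other. Ifit3b made up 8.97% of the fragments of the pair in KO and 12.2% in WT at day 0, and adding the pair together is given beside the tests.

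Expression was deposited as FPKM, a fragment number scaled to transcript length and library size, with 1 value per gene and library. No fragment counts were used as such, but low FPKM values advance in equal steps. Across 409 low genes, kept because a step fitted them well, 99.6% of 5847 values lay within 0.1 step of a whole multiple. Steps and depths were fitted to these same values, so that share describes the fit and is not an independent check. Reading 1 step as 1 fragment gave the fragments behind each member value, and relative depths from 0.621 in the WT day 3 library of mouse 531 to 1 in the KO day 2 library of mouse 528, with every other library at 0.751 or more. All 18 RANKL-day values of each member fell within 0.1 step of a whole number, with the step of each member fitted to these values. Summed FPKM per library ran from 459180 to 537906 on the RANKL days and was higher in every day 0 library. At day 0 it ran from 573661 to 652938 in KO and from 619851 to 734974 in WT. The targeted gene Tmem173 (Sting1) averaged 4.84 ± 0.260 FPKM in KO and 25.2 ± 3.70 FPKM in WT at day 0 (SD, n = 3 each), and its log2 difference of -2.15 passed limma's test with Benjamini-Hochberg adjustment (adjusted p = 8.26e-06). It also passed at day 2, with 3.37 to 3.70 FPKM in KO and 5.28 to 7.35 FPKM in WT (-0.68, limma, adjusted p = 0.0232). At day 3 it measured 3.19 to 3.79 FPKM in KO and 4.03 to 4.69 FPKM in WT, and at day 4 it measured 2.65 to 2.86 and 3.38 to 5.01 FPKM. Neither difference passed (limma, adjusted p = 0.934 and 0.224), but the KO and WT ranges did not overlap on any day. Osteoclast markers (9 genes) summed to 45300 to 50000 FPKM in KO and 41400 to 48200 FPKM in WT at day 4, against 60.1 to 166 and 93.1 to 143 FPKM at day 0.

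Before RANKL, every member was lower in KO than in WT precursors, by 3.45 to 9.60 times on group means, and no KO library reached the lowest WT library. Ifit3, Ifit3b and Ifit1 passed the test and Ifit2 did not, so 3 of 4 members were called lower, where 0.0893% of all 10081 genes tested were. All 4 members were among the genes tested, whose mean reached 1 FPKM in any group. Ifit3b entered only through its WT day 0 mean, so its call is partly set by that filter. Without the filter Ifit3b still passed (limma, Benjamini-Hochberg adjusted p = 0.00217). Ifit1, the cap-sensing member, measured 1.23, 2.00 and 2.26 FPKM in KO mice 481, 528 and 532, against 14.3, 5.87 and 9.90 FPKM in WT mice 480, 529 and 531. The highest KO value was below the lowest WT value, and WT mouse 480 stood highest. Ifit1 was lower in KO by 1.91 on the log2(FPKM + 1) scale (SE 0.373, adjusted p = 0.0499, limma with Benjamini-Hochberg adjustment), which lies at the edge of the 0.05 threshold.

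Ifit2 measured 1.34, 1.64 and 1.77 FPKM in the same KO mice and 6.96, 4.84 and 4.61 FPKM in the WT mice. Its groups also kept apart, with a ratio of WT to KO means of 3.45, the smallest of the 4. The difference of -1.31 (SE 0.322) did not pass (limma, Benjamini-Hochberg adjusted p = 0.288).

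Ifit3, the partner of IFIT1 in human cells, measured 1.38, 1.67 and 1.75 FPKM in KO and 15.4, 7.33 and 9.63 FPKM in WT. The 3 KO libraries lay close together, while the WT libraries spread more widely, with mouse 480 highest. The difference was -2.13 (SE 0.269, limma, Benjamini-Hochberg adjusted p = 0.000389), rank 3 of the 10081 genes tested. Ifit3b measured 0.0958, 0.213 and 0.160 FPKM in KO and 2.40, 1.0 and 1.09 FPKM in WT. It was the lowest of the 4 in every group, and its 3 KO values rest on 20 fragments in all, against 175 in WT (95% exact Poisson intervals 12.2 to 30.9 and 150 to 203, counting error only). The difference was -1.07 (SE 0.165, limma, Benjamini-Hochberg adjusted p = 0.00452), on a scale that shrinks the 9.60-fold ratio of means of so low a gene.

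All 4 members had groups that did not overlap, and 3.65% of genes had KO below WT in that way. Calls depended on the scale and the fit. With equal weights for all days, all 4 members passed (for Ifit2, limma, Benjamini-Hochberg adjusted p = 0.000353). The main fit gave the day 0 libraries, whose spread was wider, a lower weight than later ones. No member passed with a pseudocount of 0.1 (log2 differences -2.34, -1.71, -2.62 and -2.56 for Ifit1, Ifit2, Ifit3 and Ifit3b, adjusted p from 0.827 to 1), although the differences were larger on that scale. No member passed when the 6 day 0 libraries were fitted alone (adjusted p from 0.110 to 0.644), and 1 member passed without KO mouse 481 or without KO mouse 532. Counted as 1 gene, Ifit3 and Ifit3b differed by -2.21 (SE 0.299, limma, Benjamini-Hochberg adjusted p = 0.00109).

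**Figure D2:**
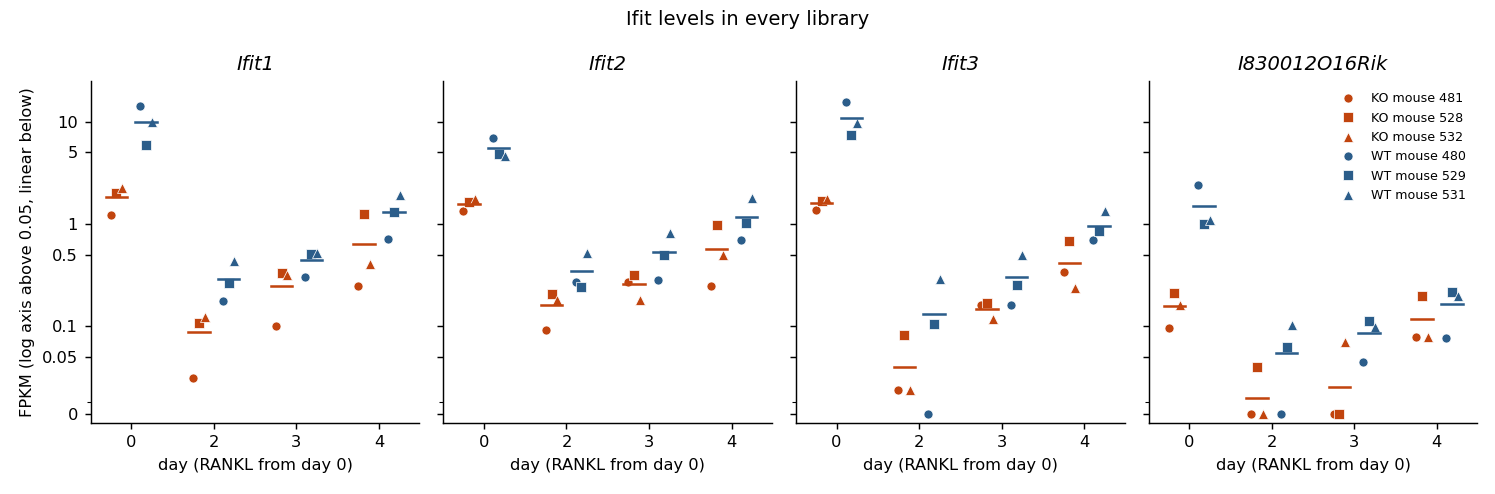
FPKM of each member in all 24 libraries by day, KO in orange to the left of WT in blue, 1 marker shape per mouse and a bar at the mean of the 3 mice. The axis is logarithmic above 0.05 FPKM and linear below it; at day 0 all KO markers lie under all WT markers, and the group means of both genotypes are lowest at day 2 and higher again at day 4.

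Other genes of the interferon response were taken from lists chosen with earlier results of these data known. Of 30 further antiviral interferon-stimulated genes, 29 are in the table and 27 were tested. All 27 had a negative log2 difference in KO at day 0, with a median of -0.90 against -0.007 over all genes tested, and 52.2% of all genes were negative. Of these, 5 passed, all lower in KO. Rsad2 (viperin, which makes an antiviral nucleotide) averaged 2.29 ± 0.857 FPKM in KO and 12.4 ± 1.80 FPKM in WT (SD, n = 3 each; -2.05, limma, Benjamini-Hochberg adjusted p = 0.0019). The antiviral GTPases Mx1 (-0.97, limma, adjusted p = 0.00459) and Mx2 (-0.82, limma, adjusted p = 0.00896) also passed. The other two were Usp18, which restrains interferon receptor signalling (-1.66), and Oasl1, an OAS-like protein (-1.47).

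None of the upstream lists held a gene past the threshold in limma at day 0. The 7 genes from receptor to transcription complex had a median of -0.08, and among them Stat2 at -0.34 and Irf9 at -0.41 did not pass (limma, Benjamini-Hochberg adjusted p = 1). Among 5 interferon regulatory factors, Irf7, which amplifies interferon production, averaged 13.4 ± 2.76 FPKM in KO and 44.6 ± 14.2 FPKM in WT, but its difference of -1.64 did not pass (limma, Benjamini-Hochberg adjusted p = 0.647). Irf3, the factor that STING engages, averaged 32.6 ± 3.68 and 35.7 ± 3.07 FPKM (-0.13, limma, adjusted p = 1), and Irf1 differed by -0.16. Of 10 nucleic acid sensors and adaptors tested, the named 3 were Zbp1 at -1.51, Dhx58 at -0.85 and Ddx58 (RIG-I) at -0.67, and no member of the list passed. Type I interferon genes were not analysed here.

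Genes beside the cluster lay near 0 in this comparison. Of 6 neighbours tested on chromosome 19, 0 passed and their median was 0.04. Lipa, a lysosomal lipase whose gene lies just before Ifit2, averaged 691 ± 137 FPKM in KO and 670 ± 160 FPKM in WT (log2 difference 0.05). Pank1, Kif20b, Stambpl1, Acta2 and Fas lay between -0.05 and 0.26. A further gene within the cluster, Ifit1bl1 (Gm14446 in the table), averaged 0.245 ± 0.0797 FPKM in KO and 1.02 ± 0.564 FPKM in WT (-0.66, limma, adjusted p = 1).

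**Figure D3:**
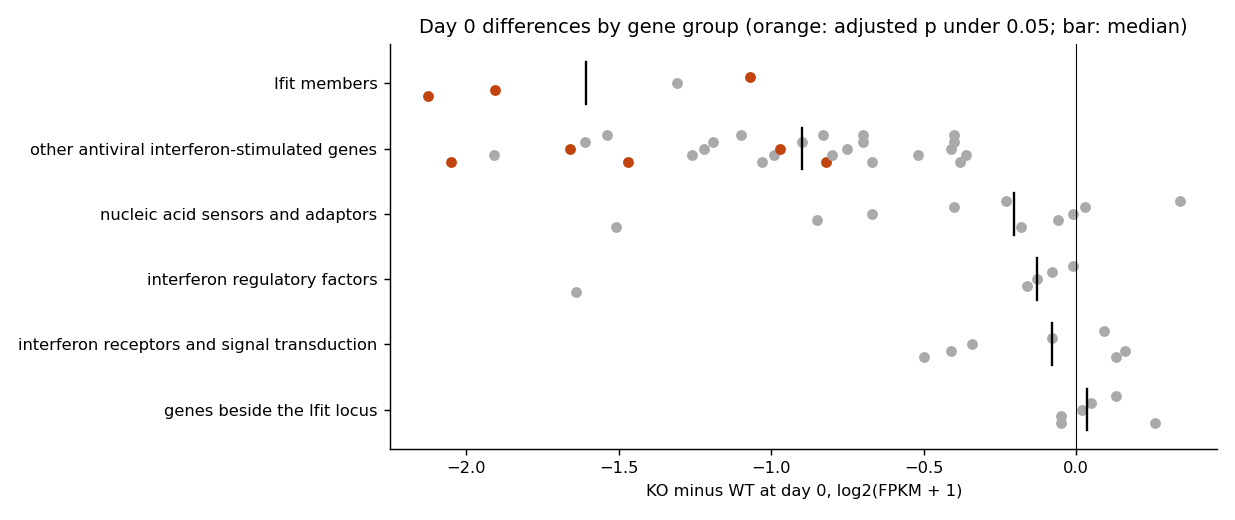
KO minus WT difference at day 0 on the log2(FPKM + 1) scale, 1 point per gene, grouped by list, with the median as a bar and genes past an adjusted p of 0.05 in orange. The Ifit members lie from -2.13 to -1.07, the other antiviral genes have a median of -0.90, and the neighbours of the locus a median of 0.04.

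Day 0 cultures held other marrow cells in both genotypes. Summed over the 6 neutrophil markers in the table, levels were 7010 to 12300 FPKM in KO and 5580 to 15300 FPKM in WT. B cell markers (6 genes) summed to 49.2 to 125 FPKM in KO and 25.9 to 96.1 FPKM in WT. The 3 plasmacytoid dendritic cell markers in the table, a cell type known for high interferon output, summed to 24.9 to 74.5 FPKM in KO and 17.2 to 59.6 FPKM in WT. That sum came mainly from Ly6d (16.7 to 62.4 and 8.14 to 42.0 FPKM) and Tcf4 (7.3 to 11.7 and 8.53 to 15.4 FPKM). Siglech was at 0.848 to 1.94 FPKM in KO and 0.5 to 2.25 FPKM in WT. A sum led by Ly6d and Tcf4 need not measure that cell type. Each of these sums overlapped between genotypes, and so did that of the macrophage markers at 2050 to 3000 FPKM in KO and 2060 to 3010 FPKM in WT. Some single markers did not overlap. The macrophage Fc receptor gene Fcgr1 was at 49.0 to 55.3 FPKM in KO and 68.1 to 81.5 FPKM in WT, the neutrophil granule gene Mpo at 56.5 to 72.7 FPKM in KO and 35.7 to 42.7 FPKM in WT, and the stromal collagen gene Col1a1 at 0.349 to 0.609 FPKM in KO and 0.244 to 0.297 FPKM in WT. Their part in the Ifit difference was not tested. Fewer cells that express an Ifit gene and less Ifit RNA per cell cannot be told apart in bulk RNA.

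At day 2 of RANKL all members stood well under 1 FPKM in both genotypes. In WT all 4 were called lower than at day 0, with day 0 means 15.9 to 81.6 times those of day 2. In KO 3 of 4 were called lower. A large part of the genes tested moved between these days, and 36.5% of them in KO and 37.5% in WT were called lower. The member counts are read against that share. Ifit3 entered the test only through its day 0 means, and Ifit3b only through its WT day 0 mean. Ifit1 and Ifit2 reached a mean of 1 FPKM only at day 0 and in WT at day 4. Calls against day 0, here and on later days, are thus partly set by that filter. Without the filter the counts of members called were the same in each genotype on each day, over a table that is itself a selection. Ifit3 measured 0.0211, 0.0827 and 0.0207 FPKM at day 2 in KO mice 481, 528 and 532, while in WT mice 480, 529 and 531 it was listed at 0, 0.105 and 0.292 FPKM. These values rest on 6 fragments in KO and 19 in WT, and both genotypes lay far below their own day 0 range. Its day 2 minus day 0 difference was -1.32 in KO (SE 0.216, adjusted p = 1.7e-05) and -3.33 in WT (SE 0.216, adjusted p = 3.17e-11, limma with Benjamini-Hochberg adjustment).

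Ifit1 at day 2 measured 0.0311, 0.107 and 0.122 FPKM in KO and 0.176, 0.262 and 0.431 FPKM in WT. Its KO and WT groups did not overlap at day 2. The difference from day 0 was -1.36 in KO and -3.03 in WT (limma, adjusted p = 0.000404 and 1.74e-08). Ifit2, the highest of the 4 in mean FPKM at day 2 in both genotypes, measured 0.0910, 0.208 and 0.179 FPKM in KO and 0.271, 0.240 and 0.520 FPKM in WT. It fell by 1.15 in KO and by 2.26 in WT (limma, adjusted p = 0.000486 and 1.43e-07). Ifit3b was listed at 0 in KO mice 481 and 532 and in WT mouse 480, with 0.0410 FPKM in KO mouse 528 and 0.0622 and 0.103 FPKM in WT mice 529 and 531. Its fall passed in WT (-1.20, adjusted p = 8.28e-08) but not in KO (-0.19, limma, Benjamini-Hochberg adjusted p = 0.202), where it started from 0.156 FPKM. With a pseudocount of 0.1 all 4 members were called lower in KO.

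Of the 27 other antiviral genes, 23 were called lower than at day 0 in KO and 24 in WT, with medians of -1.38 and -2.18. Neutrophil markers were also far below their day 0 sums, at 172 to 195 FPKM in KO and 119 to 207 FPKM in WT at day 2, and B cell markers were at 0.220 to 0.373 FPKM in KO and 0.309 to 0.415 FPKM in WT. Their part in the Ifit fall was not tested. At day 3, 3 of 4 members were called lower than at day 0 in KO and 4 of 4 in WT (39.5% and 41.6% of all genes). At day 4, 3 of 4 members were called lower than at day 0 in KO and 4 of 4 in WT (40.8% and 42.7% of all genes), and all 4 means were lower, by 1.32 to 3.83 times in KO and by 4.66 to 11.2 times in WT. Without KO mouse 532, 1 member passed in that KO comparison.

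From day 2 to day 4, 3 of 4 members were called higher in both genotypes. Ifit1, Ifit2 and Ifit3 passed in KO and in WT, and Ifit3b did not pass in either. The mean of Ifit3b also rose, by 8.66 times in KO and 2.96 times in WT, from 2 and 8 fragments at day 2. With a pseudocount of 0.1 all 4 members passed in each genotype. Genes called higher at day 4 than at day 2 made up 33.4% in KO and 34.2% in WT. At day 4 Ifit1 measured 0.249, 1.24 and 0.407 FPKM in KO and 0.718, 1.31 and 1.90 FPKM in WT. KO mouse 528 stood well above the other two KO mice and inside the WT range. The rise was 0.54 in KO (SE 0.196, adjusted p = 0.021) and 0.81 in WT (SE 0.196, adjusted p = 0.00108, limma with Benjamini-Hochberg adjustment), with ratios of day 4 to day 2 means of 7.29 and 4.52.

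Ifit2 at day 4 measured 0.249, 0.975 and 0.491 FPKM in KO and 0.70, 1.02 and 1.80 FPKM in WT, a rise of 0.41 in KO and 0.67 in WT (limma, adjusted p = 0.0382 and 0.00162). Ifit3 at day 4 measured 0.338, 0.678 and 0.237 FPKM in KO and 0.693, 0.851 and 1.34 FPKM in WT. It was the only member whose KO and WT values did not overlap at day 4. Its rise was 0.43 in KO and 0.79 in WT (limma, adjusted p = 0.0112 and 5.44e-05). Ifit3b reached 0.0775, 0.199 and 0.0782 FPKM in KO and 0.0763, 0.217 and 0.197 FPKM in WT, where its difference from day 2 was 0.14 in each genotype (limma, adjusted p = 0.165 and 0.161).

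The KO calls depended on single mice. No member passed in KO without mouse 528, and 1 passed without mouse 532, while 3 passed in WT whichever mouse was left out. Day 3 means lay between those of days 2 and 4, for example with Ifit1 libraries of day 3 at 0.101, 0.333 and 0.314 FPKM in KO and 0.304, 0.505 and 0.515 FPKM in WT, and Ifit3 at 0.159, 0.167 and 0.118 FPKM in KO and 0.160, 0.251 and 0.499 FPKM in WT. Of the 27 other antiviral genes, 16 were called higher and 1 lower at day 4 than at day 2 in KO, and 16 higher and 2 lower in WT. Of all genes, 29.8% in KO and 32% in WT were called lower at day 4 than at day 2. All 7 genes of the receptor and transcription complex list rose in both genotypes.

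**Figure D4:**
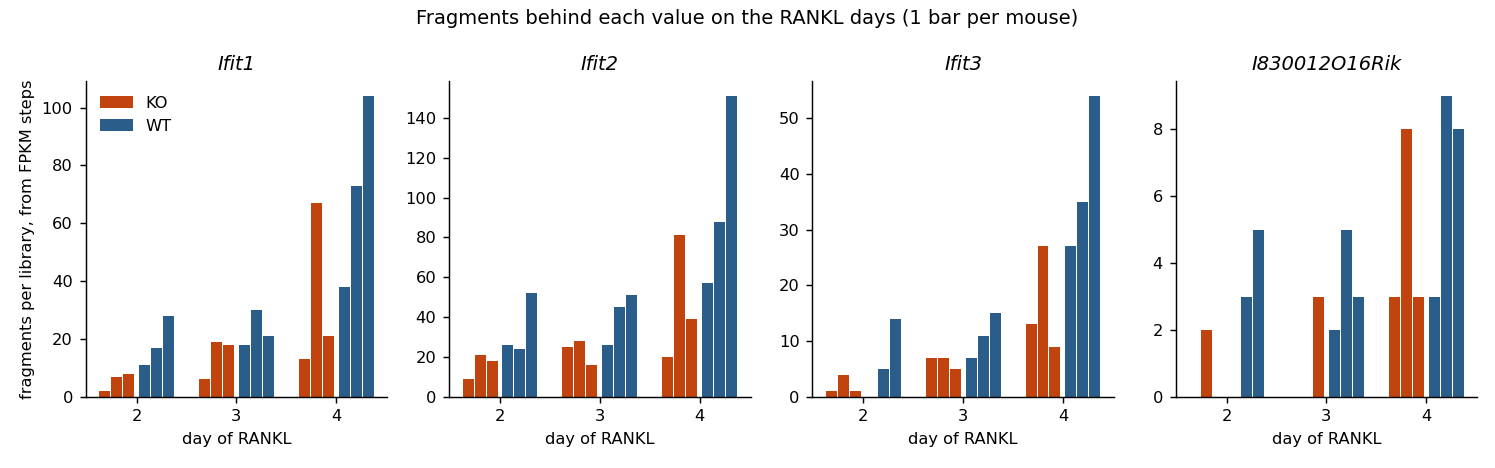
Fragments behind each RANKL-day value, read from the FPKM steps, 1 bar per mouse in order of mouse number (KO 481, 528 and 532 in orange, left; WT 480, 529 and 531 in blue, right); a missing bar is a value listed at 0. Ifit3b never exceeded 9 fragments in a library, and Ifit1 reached 104 in WT mouse 531 at day 4.

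During RANKL culture the KO mean stayed below the WT mean for every member on every day, but no single difference passed the test. Over all genes, 53.1%, 50.2% and 42.1% had a negative difference at days 2, 3 and 4. The ratio of WT to KO means was 2.16 to 4.04 at day 2, 1.77 to 3.67 at day 3 and 1.38 to 2.30 at day 4. Groups did not overlap for 2 of 4 members at day 2 (Ifit1 and Ifit2), 0 at day 3 and 1 at day 4, where 2.27%, 3.51% and 1.64% of all genes had KO below WT without overlap. The count past the adjusted threshold was 0 in limma on each of these days, against 0.00992% of all genes called lower at day 2 and 0% at days 3 and 4. At day 4 the log2 difference was -0.47 for Ifit3, -0.46 for Ifit2 and -0.52 for Ifit1, with unadjusted limma p-values of 0.0026, 0.01 and 0.0127 and a Benjamini-Hochberg adjusted p of 1 for each. At an unadjusted p under 0.05, 0.932% of all genes were lower in KO at day 4. At days 2 and 3, 0 members were past that level, where 0.565% and 1.58% of all genes were. The smallest adjusted p that any alternative gave at day 4 was 0.0577, for Ifit3.

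Averaging days 2 to 4 within each mouse gave 3 KO and 3 WT values per gene. The KO minus WT differences were -0.32 for Ifit1, -0.31 for Ifit2, -0.25 for Ifit3 and -0.07 for Ifit3b, and 0 of 4 passed in limma (Benjamini-Hochberg adjusted p = 1), with 0% of all genes called lower and 48.5% negative. Unadjusted limma p-values were 0.0401, 0.044, 0.0439 and 0.205, and 0.704% of all genes were lower at an unadjusted p under 0.05. Fragment sums show how thin these values are. Ifit3 rested on 6, 19 and 49 fragments over the 3 KO libraries at days 2, 3 and 4, and on 19, 33 and 116 over the WT libraries. Ifit1 rested on 17, 43 and 101 fragments in KO and on 56, 69 and 215 in WT. At day 2 the counting intervals for Ifit1 were 9.9 to 27.2 fragments in KO and 42.3 to 72.7 in WT, before any spread between mice. The other antiviral genes had medians of -0.20, -0.19 and -0.36 at days 2, 3 and 4, with 0 called on any of them.

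The change in the genotype difference between day 0 and each RANKL day was tested as an interaction. For Ifit3 the KO minus WT difference was closer to 0 by 2.01 at day 2 (SE 0.306, adjusted p = 0.00913), by 1.95 at day 3 (SE 0.296, adjusted p = 0.00584) and by 1.66 at day 4 (SE 0.301, adjusted p = 0.0436, limma with Benjamini-Hochberg adjustment). For Ifit3b it was closer to 0 by 0.98 at day 3 (adjusted p = 0.0403) and by 1.01 at day 4 (adjusted p = 0.0436), and at day 2 it just missed (1.01, limma, adjusted p = 0.0518). With the mouse as a replicate block, Ifit3b no longer passed at day 3 or day 4 (limma, adjusted p = 0.0926 and 0.114), while Ifit3 still passed on each day (limma, adjusted p = 0.000788, 0.000568 and 0.00645). Ifit1 and Ifit2 did not pass on any day. The calls depended on single mice: at day 2 no member passed without WT mouse 529 or without any one of the KO mice, at day 3 none passed without WT mouse 529, KO mouse 481 or KO mouse 532, and at day 4 none passed without any one mouse other than WT mouse 531. Genes called in this direction made up 0.0298%, 0.0595% and 0.0397% of all genes at days 2, 3 and 4. The scale matters here, because the WT mean of Ifit3 starts at 10.8 FPKM and the means of both genotypes stay under 1 FPKM on the RANKL days. Ifit3 also entered the test only through its day 0 means, and Ifit3b only through its WT day 0 mean. With a pseudocount of 0.1, Ifit3 still moved by 2.09, 2.00 and 1.54, with larger errors (SE 0.860, 0.830 and 0.845), and no member passed. On means, Ifit3 was 6.75 times higher in WT than in KO at day 0 and 2.05 to 3.18 times higher on the RANKL days.

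**Figure D5:**
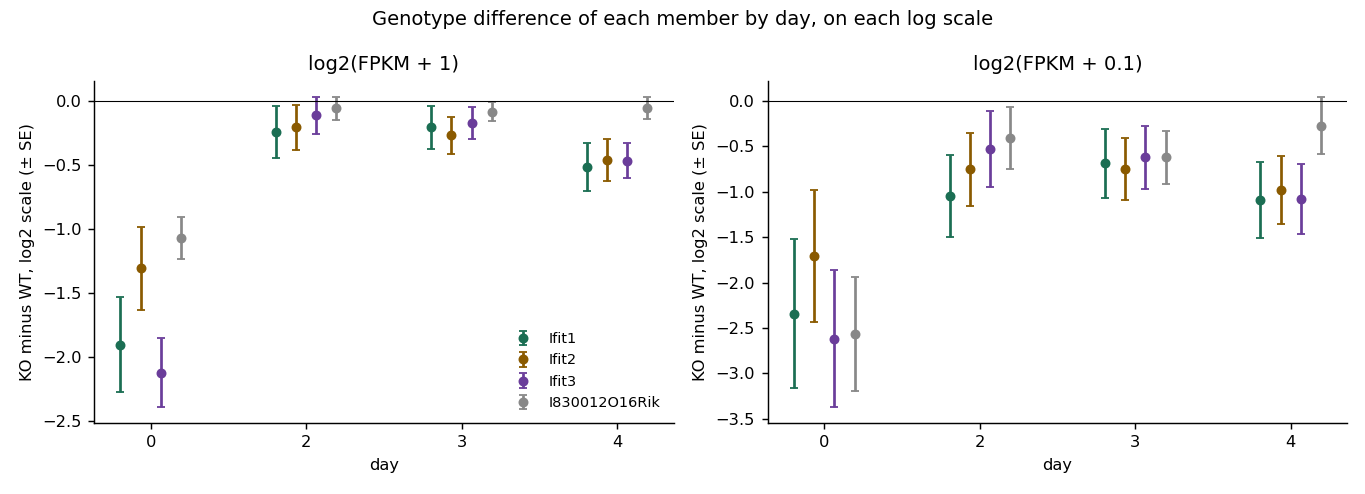
KO minus WT difference of each member by day, with its SE, on log2(FPKM + 1) at left and log2(FPKM + 0.1) at right. All values are below 0 on both scales, the day 0 differences are the lowest of each member on both scales, and the error bars at day 0 are wider at right.

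Across the 8 groups, Ifit1 and Ifit2 shared 1 order of means, with WT day 0 highest, then KO day 0, WT day 4, KO day 4, WT day 3, WT day 2, KO day 3 and KO day 2. Ifit3 differed from it only in that KO day 3 stood above WT day 2, and for Ifit3b WT day 4 stood above KO day 0. WT day 0 kept clear of the next group for all 4 members. Most later neighbours in the order overlapped, with the exceptions of KO day 0 over WT day 4 and WT day 4 over KO day 4 for Ifit3. The day 0 level in KO was thus in the range of WT day 4 for Ifit1, at 1.83 ± 0.536 FPKM in KO day 0 and 1.31 ± 0.592 FPKM in WT day 4 (SD, n = 3 each).

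The order of the WT mice changed between the precursor and RANKL stages, and that of the KO mice changed in part. WT mouse 480 was the highest of the 3 WT mice for 4 of 4 members at day 0 and the lowest in 11 of 12 member values on days 2 to 4. WT mouse 531 was highest in 10 of those 12. In KO, mouse 481 was lowest for 4 of 4 members at day 0 and in 6 of 12 later values. The highest KO mouse was 532 for 3 of 4 members at day 0 and 528 in 10 of 12 later values. The members share each library, so these are repeated readings of 1 culture and not separate evidence.

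Within groups the members varied together. Deviations from the group mean over the 24 libraries of 6 mice gave Pearson r of 0.61 to 0.88 between pairs of members. This is a description without a test, since libraries share mice and depth. Values of r with Ifit3b lean on the WT day 0 libraries, where its SD was 0.784 FPKM. In every other group its SD was at most 0.0761 FPKM. The ranking by mean r shares this limit in part, and reads that fit both Ifit3 and Ifit3b may bear on the r of that pair. The 6 genes outside the family with the closest pattern, by mean r with the 4 members, were Pyhin1 (0.85), Oas2 (0.83), Parp10 (0.81), Usp18 (0.79), Ms4a7 (0.79) and H2-K1 (0.79). Pyhin1 is an interferon-inducible nuclear DNA-binding protein, Parp10 an ADP-ribosyltransferase, Oas2 makes the RNase L activator oligoadenylate, and H2-K1 is a class I histocompatibility molecule. Pyhin1, the closest, averaged 2.17 ± 0.0520 FPKM in KO and 4.43 ± 1.26 FPKM in WT at day 0 and 0.377 ± 0.175 and 0.486 ± 0.213 FPKM at day 4. Usp18 tracked Ifit1 most closely (r = 0.90) and Ifit3b least (r = 0.61).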

How the data were processed

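RNA-seq of 24 libraries (8 groups of 3 mice) was used. Per the submitters' processing notes, reads were handled with HISAT2 2.0.5, Cufflinks 2.2.1 and Cuffdiff on mm10. The authors deposited FPKM, 1 value for each gene in each library. The sources used here do not give the annotation, strandedness, multi-read rules or how the table's 10721 genes were selected. The deposited table is named as a selection of genes, so every share of all genes and every adjusted p is over that selection. All 24 value columns were used and 0 left over.

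The test was limma 3.58.1 (R 4.3.3) on log2(FPKM + 1), with 1 mean per group, weights by day (0.355, 1.20, 1.70 and 1.38 at days 0, 2, 3 and 4), a variance trend, two-sided p-values and Benjamini-Hochberg adjustment within each comparison over the 10081 genes whose mean reached 1 FPKM in any group, at 0.05. This scale understates changes of low genes. The fit was also run on simulated data with independent noise in each library. That run cannot speak to libraries that share a mouse or to low fragment numbers. The named genes are the 4 members, Tmem173, the neighbours, the 3 genes of each list with the smallest p at day 0 and the 6 with the closest pattern. Oasl1 was named after its value was seen, to complete a count. One gene that the rule names is not reported here. The members and lists were chosen with earlier results of these data known. Libraries of a mouse share the animal across days (deviations correlated with a median of 0.261 in KO and 0.136 in WT), which pairs days and not genotypes. P-values rest on the spread between the 3 mice within each group, pooled over all 24 libraries after weighting, with no mouse term. Libraries of a mouse were thus treated as independent, except in the mean of days 2 to 4 per mouse and in the mouse block. Intervals on fragments are 95% exact Poisson and cover counting error only. Alignments used blastn 2.17.0. Alternatives were equal weights, other pseudocounts and filters, median scaling, fewer groups, leaving out each mouse, a mouse block, and the Ifit3 pair summed.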

Additional observations from a re-analysis of the deposited data

Results flagged for a closer look

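The genotype difference of Ifit3 changed between day 0 and each RANKL day in a test of that change itself, and it is listed for that reason. The KO minus WT difference moved by 2.01 at day 2, by 1.95 at day 3 and by 1.66 at day 4 on the log2(FPKM + 1) scale (limma, Benjamini-Hochberg adjusted p = 0.00913, 0.00584 and 0.0436). Values under 1 FPKM leave little room for a difference on this scale, so these moves partly restate the day 0 difference of -2.13. Ifit3 entered the test only through its KO and WT day 0 means. Ifit3b (I830012O16Rik) moved likewise by 0.98 at day 3 and by 1.01 at day 4 (limma, adjusted p = 0.0403 and 0.0436). It was tested only because its WT day 0 mean, the high group of this contrast, reached 1 FPKM, and with the mouse as a replicate block it did not pass (limma, adjusted p = 0.0926 and 0.114). With a pseudocount of 0.1 none of these passed, at 2.09, 2.00 and 1.54 for Ifit3 and 1.95 and 2.29 for Ifit3b. Ifit3b rested on 3 and 14 fragments in KO and on 10 and 20 in WT at days 3 and 4. The cause was not tested.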

How the results depend on the processing

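Of 940 single member values under 15 alternatives, 848 kept their direction and side of the threshold, 74 lost the call, 18 gained one and 0 changed direction. At day 0, 3 members were called lower in KO. The number was 4 with equal weights, 0 with a pseudocount of 0.1 and 0 with only the groups compared. It was 1 with a filter at 5 FPKM (which removes Ifit3b) and 1 to 3 leaving out a mouse. Day 4 against day 0 in KO gave 1 to 3 members leaving out a mouse, and 1 without mouse 532. Day 4 against day 2 in KO gave 1 with equal weights, and 0 to 3 leaving out a mouse. The interaction at day 2 called 1 member, against 2 with equal weights, no filter, median scaling or the Ifit3 pair summed (where the pair counts as both), 0 with a pseudocount of 0.1 and 0 to 1 leaving out a mouse. At day 3 it called 2, against 1 with a filter at 5 FPKM, 1 with only the groups compared, 0 with a pseudocount of 0.1 and 0 to 1 leaving out a mouse. At day 4 it called 2, against 0 with a pseudocount of 0.1, a filter at 5 FPKM, only the groups compared or the pair summed, and 0 to 1 leaving out a mouse. With the mouse as a replicate block, 3 members were called at day 0, 1 in the interaction at day 3 and 1 at day 4, and no other count moved by over 1.5 times. A block with a pseudocount of 0.1, chosen after seeing the data, called 0 members at day 0 and 0 in each interaction. The cause of these changes was not tested. Depth limits the RANKL days, where Ifit3b had at most 9 fragments in a library.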
